A study of Mus musculus with 51 samples.

Results

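The melanocyte lineage genes described here are 10 genes chosen by symbol: the transcription factors Mitf and Sox10, the receptors Kit and Ednrb, the pigment enzymes Tyr, Tyrp1 and Dct, and the melanosome proteins Pmel, Mlana and Slc45a2. They were taken from the 40077 mouse genes of a bulk RNA-seq table, and each of the 10 symbols matched 1 gene. B16-BL6 is a melanoma line derived from the pigmented C57BL/6 mouse, and Myc-CaP is a prostate carcinoma line that carries a Myc transgene and is grown in the albino FVB strain. The question was how the genes that define a melanocyte stood in B16-BL6 tumors when Uba1, the main enzyme that activates ubiquitin for conjugation to proteins, was depleted, with Myc-CaP tumors as the other lineage.

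Subcutaneous B16-BL6 tumors came from cells given a nontargeting guide RNA (control, 3 tumors, numbered 1, 2 and 4 in the labels) or a guide against Uba1 (sgUba1, 4 tumors). The Myc-CaP tumors were control (3) and sgUba1 (7), empty vector (3) and Uba1 overexpression (Uba1 OE, 4), and vehicle (6) and the UBA1 inhibitor TAK-243 (5), 28 in all. A further 16 libraries were from cultured Myc-CaP cells with or without IFN-γ, either control or sgUba1, or untreated or treated with 50 nM TAK-243, and are used here for levels only. By the study's methods the guide vector was transfected and the cells selected with puromycin. Hosts were female C57BL/6 mice for B16-BL6 and male FVB mice for Myc-CaP. The methods describe sublines grown from single cells, so a group may stand for 1 clone, and tumors placed on both flanks, so 2 tumors may share a mouse. Independent guides against Uba1 were used in the study, and the guide of each tumor is not in its label. The labels name no animal, and p-values therefore measure the spread between these tumors. The B16-BL6 libraries held 26347998 to 35693203 counts each, and the Myc-CaP sgRNA tumors 10668740 to 14168313.

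Melanocytes arise from the neural crest, where SOX10 and PAX3 switch on Mitf, the regulator that in turn drives the genes of pigment synthesis. KIT, the receptor for stem cell factor, and EDNRB, the receptor for endothelin 3, guide the migration and survival of their precursors. TYR, TYRP1 and DCT make melanin inside the melanosome, whose fibrils are built of PMEL. Melanoma cells keep this program to varying degrees, and PMEL, MLANA, TYR and TYRP1 are classical T cell antigens of melanoma. In a bulk tumor, fewer cells of a type and less RNA per cell cannot be told apart.

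The Mitf locus holds several start sites, and the one used in melanocytes lies inside the gene. Mitf spans 97807052 to 98021349 on the plus strand of chromosome 6 (GRCm38, GENCODE M21), and the last of its 3 RefSeq promoter windows, at chr6:97991533-97991782 (GRCm38.p6, plus strand), lies between the ends of the gene. That window is shown because it holds the cAMP response element TGACGTCA, in capitals, the palindrome through which melanocortin signals reach Mitf, starting 153 bases before the start site.

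Mitf: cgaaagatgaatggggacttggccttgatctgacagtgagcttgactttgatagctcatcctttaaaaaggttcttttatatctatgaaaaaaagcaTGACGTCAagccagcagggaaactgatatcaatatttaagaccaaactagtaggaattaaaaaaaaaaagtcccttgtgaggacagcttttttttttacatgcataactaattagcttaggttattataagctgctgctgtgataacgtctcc

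The 3 pigment enzymes share an M-box, TCATGTG, the form of E-box bound by MITF. It is shown in capitals with 10 bases on either side, read in the direction of the gene, at chr7:87493518-87493544 (minus strand) for Tyr, chr4:80834156-80834182 (plus strand) for Tyrp1 and chr14:118052381-118052407 (minus strand) for Dct.

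Tyr: aaaaagttagTCATGTGctttgcagaa

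Tyrp1: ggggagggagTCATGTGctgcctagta

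Dct: gcacttagggTCATGTGctaacaaaga

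The M-box began 22 bases before the RefSeq start of Tyr, 47 before that of Tyrp1 and 151 before that of Dct, and Dct held a second one on the other strand 232 bases before its start. RefSeq windows were matched for 6 of the 10 genes (Mitf, Kit, Ednrb, Tyr, Tyrp1 and Dct), 9 windows in all, each taken over the 250 bases before a start site and searched on both strands. TCATGTG stood in 3 of these windows and in 3.25% of the 32851 windows of all genes. The shorter CATGTG, which every M-box contains, stood in the same 3 windows and in 12.3% of all, CACGTG in 0 and 6.02%, the SOX motif ACAAAG in 2 (Tyrp1 and Dct) and 16.5%, and TGACGTCA in 1 and 1.55%. These are matches of letters, not measured binding.

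Tyr spans 87424771 to 87493512 on chromosome 7, Tyrp1 spans 80834123 to 80851719 on chromosome 4 and Dct spans 118012790 to 118052244 on chromosome 14, on the strands given above. The M-box shown for Tyrp1 therefore falls inside the GENCODE span of that gene, although it precedes the RefSeq start. Of the other genes, Sox10 lies at 79154908 to 79165240 on chromosome 15 (minus strand), Kit at 75574916 to 75656722 on chromosome 5 (plus), and Ednrb at 103814625 to 103844402 on chromosome 14 (minus). Pmel lies at 128704195 to 128720238 on chromosome 10 (plus), Mlana at 29697824 to 29708634 on chromosome 19 (plus) and Slc45a2 at 11000721 to 11029233 on chromosome 15 (plus). Pmel overlaps 2 genes of the opposite strand, sharing 105 exonic bases with Dgka and 34 with Cdk2, and 3.54% of the 31-base words of its transcripts occur in theirs. Words of Tyr and Dct recur in transcripts of many other genes (2.04% and 3.16% of their words), so very low values of Tyr, Dct and Pmel are uncertain.

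In B16-BL6 control tumors the pigment program was among the most abundant transcripts of the tumor. In TPM, which scale a library's reads for transcript length to a fixed total, Dct ranked 16th, Pmel 25th, Tyrp1 53rd and Mlana 95th of the 40077 genes. Dct, the enzyme that converts dopachrome, stood at 4309, 4053 and 3794 TPM in the 3 controls. Pmel stood at 3367, 3348 and 3237 TPM. Tyrp1, which stabilizes tyrosinase and takes part in brown-to-black melanin synthesis, stood at 1882, 2535 and 1986 TPM. Mlana, a small melanosomal membrane protein, stood at 1452, 1523 and 1528 TPM. The order Dct, Pmel, Tyrp1 and Mlana held with no overlap between neighbours in these 3 tumors.

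The regulators were lower. Mitf stood at 354.7, 370.5 and 422.3 TPM and Sox10 at 288.5, 285.1 and 274.8 TPM, ranks 301 and 374. Slc45a2, a transporter that sets melanosomal pH, stood at 234.4, 224.3 and 230.8 TPM, and Tyr, the rate-limiting enzyme of melanin synthesis, at 130.9, 119.1 and 134.3 TPM. These 4 genes did not overlap one another. The receptors came last, with Kit at 20.57, 28.34 and 20.41 TPM and Ednrb at 8.32, 8.906 and 11.63 TPM. The 10 genes together made up 1.16% to 1.25% of all TPM in the control tumors.

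sgUba1 tumors were compared with controls by CPM, counts over library size with TMM factors set within the 7 tumors and no scaling for gene length. Uba1 itself, as the check of the labels, was 409.5, 454.6 and 413.8 CPM in controls and 208.3, 220.2, 227.7 and 247.1 CPM in sgUba1 tumors, a log2 fold change of −0.92 (SE 0.0742, adjusted p = 0.000294 from the quasi-likelihood test of edgeR, as for all values below unless another tool is named). Of the whole table, 127 of 17539 tested genes passed an adjusted p of 0.05 (0.724%). None of the 10 melanocyte lineage genes was called by edgeR, where 5 had an unadjusted p under 0.05, as did 16.3% of all tested genes, the share against which the counts at that level below are to be read. DESeq2 called 3 of the 10 (Kit, Tyr and Mlana) against 3.03% of all genes (1.82% lower), and limma-voom called 0. Of the 10 log2 fold changes, 8 lay below 0 and 2 above, with a median of −0.249 beside 0.0124 over all tested genes. The sign of each of the 10 was kept in all 19 alternative settings, which are not 19 separate fits. Bonferroni reuses the main fit and could not change a sign, and the fit without sgUba1 tumor 3 entered again under another setting.

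**Figure D1:**
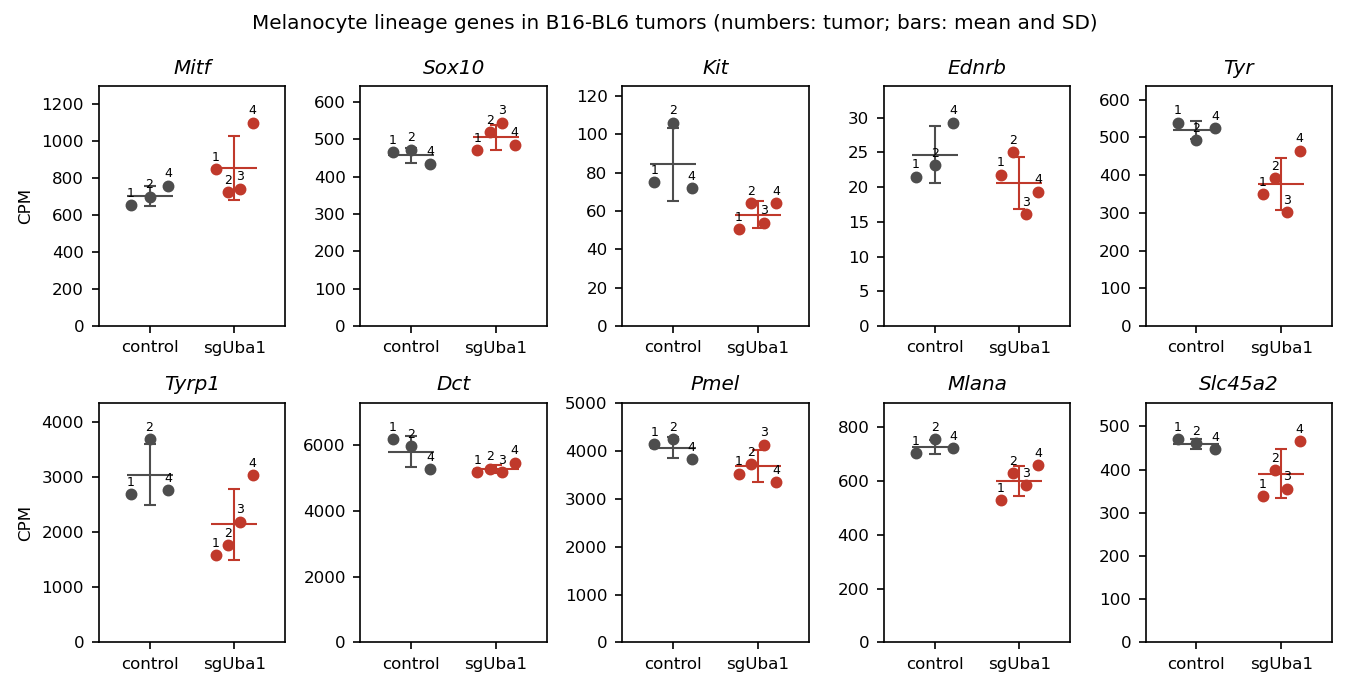
CPM (y axes, from 0) of the 10 melanocyte lineage genes in each control (grey, n = 3) and sgUba1 (red, n = 4) B16-BL6 tumor, with the tumor's number; the bar and whiskers give the mean and SD. Kit, Tyr and Mlana have every sgUba1 tumor below every control, while Mitf and Sox10 have the higher mean in sgUba1 tumors.

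The regulators stood level or slightly higher in sgUba1 tumors. Mitf was 652.3, 698.8 and 758.1 CPM in controls and 847.2, 722.1, 742.6 and 1099 CPM in sgUba1 tumors. Only tumors 1 and 4 lay above the highest control, and tumor 4 was the highest. The log2 fold change of Mitf was 0.28 (SE 0.136, adjusted p = 0.342), and 0.12 without sgUba1 tumor 4 (adjusted p = 0.46). Sox10, the neural crest factor upstream of Mitf, was 466.7, 472.5 and 434.8 CPM in controls and 471.0, 519.7, 545.2 and 485.6 CPM in sgUba1 tumors. In 3 of 4 tumors it was above every control, and the change was 0.14 (SE 0.0712, adjusted p = 0.354).

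Of the receptors, Kit, which binds stem cell factor, had the larger difference. It stood at 75.16, 106.2 and 71.93 CPM in controls and 50.37, 64.02, 53.95 and 64.11 CPM in sgUba1 tumors, with no overlap. The log2 fold change was −0.54 (SE 0.139, adjusted p = 0.125), or 31.2% less, and −0.34 without control tumor 2 (adjusted p = 0.412). Ednrb was 21.51, 23.18 and 29.31 CPM against 21.79, 25.08, 16.13 and 19.35 CPM, with the groups overlapping and a change of −0.26 (SE 0.153, adjusted p = 0.424).

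Tyr and Tyrp1 had larger differences than Dct among the enzymes. Tyr stood at 539.4, 492.4 and 524.4 CPM in controls and 350.2, 392.4, 301.8 and 464.6 CPM in sgUba1 tumors. All 4 sgUba1 tumors lay below the lowest control, tumor 4 nearest to it, and the change was −0.46 (SE 0.124, adjusted p = 0.141). Tyrp1 was 2682, 3683 and 2755 CPM in controls and 1583, 1761, 2187 and 3029 CPM in sgUba1 tumors. Tumors 1 to 3 lay below every control and tumor 4 within their range, and the change was −0.51 (SE 0.203, adjusted p = 0.265). Dct, the most abundant of the 10, was 6187, 5964 and 5269 CPM against 5180, 5284, 5190 and 5465 CPM. Its groups overlapped, and its change of −0.14 (SE 0.072, adjusted p = 0.374) had a 95% interval from −0.298 to 0.0231.

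Among the melanosome proteins, Mlana was 704.5, 756.2 and 722.9 CPM in controls and 528.3, 630.6, 585.3 and 658.9 CPM in sgUba1 tumors. The groups did not overlap and the change was −0.28 (SE 0.0815, adjusted p = 0.171). Slc45a2 was 470.8, 461.8 and 447.8 CPM against 339.2, 398.4, 356.0 and 466.5 CPM, with tumor 4 at the level of the controls and a change of −0.24 (SE 0.102, adjusted p = 0.291). Pmel was 4135, 4247 and 3821 CPM against 3525, 3726, 4128 and 3354 CPM, with tumor 3 inside the control range and a change of −0.14 (SE 0.0828, adjusted p = 0.415). The groups were apart with sgUba1 lower for 3 of the 10 genes (Kit, Tyr and Mlana), beside 8.01% of all tested genes.

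**Figure D2:**
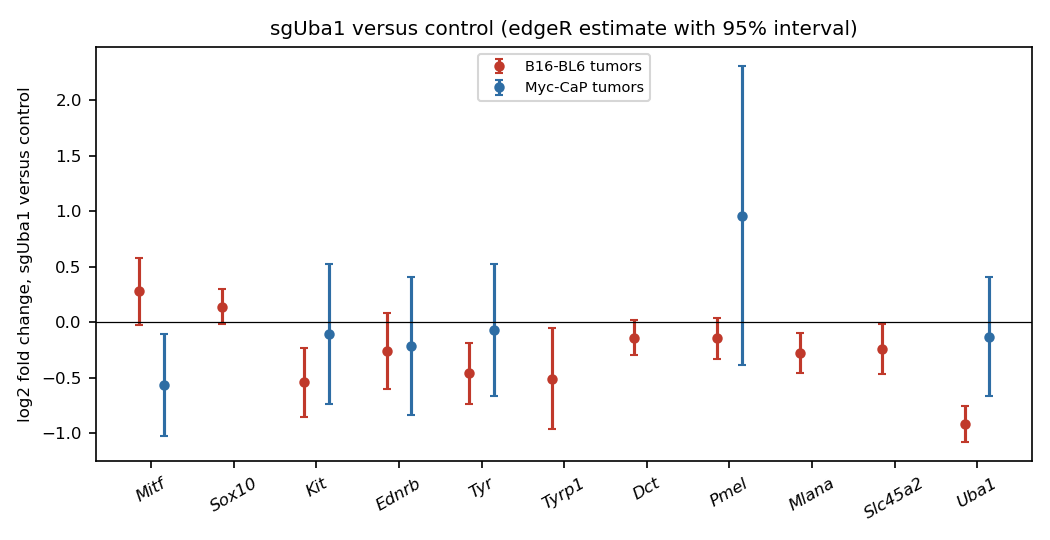
Log2 fold change (y axis) of sgUba1 against control tumors for each melanocyte lineage gene and for Uba1, with 95% intervals from edgeR, in B16-BL6 (red, 4 against 3 tumors) and Myc-CaP (blue, 7 against 3, only the genes that passed the filter on low counts). In B16-BL6 the interval of Uba1 lies wholly below 0, as do those of Kit, Tyr, Tyrp1, Mlana and Slc45a2, none of which passed adjustment over all genes.

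One tumor decided much of the count. Without sgUba1 tumor 4, edgeR called Tyr (−0.58, adjusted p = 0.0114), Tyrp1 (−0.73, adjusted p = 0.0272) and Slc45a2 (−0.34, adjusted p = 0.047), 3 of 10 beside 1.85% of all genes (1.14% lower). With control tumor 4 left out as well, a choice made after the values were seen, the called genes were Kit (−0.70, adjusted p = 0.0274), Tyr (−0.57, adjusted p = 0.0196) and Tyrp1 (−0.79, adjusted p = 0.0196), beside 3.39% of all (1.4% lower). Tumor 4 had the highest Uba1 of the sgUba1 tumors. The 10 genes together took 1.05%, 1.06% and 1.08% of all TPM in sgUba1 tumors 1 to 3, below the control range, and 1.19% in tumor 4, within it.

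Markers of host cells were read in the same tumors. Of the 10 macrophage genes all had a log2 fold change above 0 in sgUba1 tumors (median 0.588), with 0 called by edgeR, 8 at an unadjusted p under 0.05, 5 called by DESeq2 and 0 by limma-voom. Their summed level was 160.5, 136.2 and 234.9 TPM in controls and 298.2, 260.1, 277.2 and 227.5 TPM in sgUba1 tumors, lowest in tumor 4. All 13 interferon response genes also lay above 0 (median 0.555), with 0 called by each of the 3 tools and 3 at an unadjusted p under 0.05 by edgeR, and summed to 520.6 to 1247 TPM in controls and 923.9 to 1374 TPM in sgUba1 tumors. Genes of T and NK cells summed to 7.24 to 9.527 TPM against 9.942 to 13.04 TPM. Skeletal muscle genes summed to 307.4 TPM in sgUba1 tumor 4, above the 15.04 to 115.2 TPM of the other 6 tumors. The part of host cells in the differences of the 10 genes was not tested.

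Other cells that express single members were also examined. Mast cells carry KIT, and the mast cell list summed to 15.37, 15.47 and 16.07 TPM in controls and 10.65, 14.15, 9.388 and 13.87 TPM in sgUba1 tumors. Most of it was Gata2 (13.33 and 9.591 TPM on average), which is not confined to mast cells. The tryptase gene Tpsab1 and the IgE receptor gene Fcer1a were at 0 in every control, and Mrgprb1, Cma1 and Ms4a2 were detected in every control, at up to 1.27, 0.529 and 0.215 TPM. Schwann cells express Sox10, and their list summed to 739.5 to 805.9 TPM in controls and 763.2 to 891.7 TPM in sgUba1 tumors. Mbp, a myelin gene, made up most of that sum (559.8 and 588.3 TPM). As a check of the tissue, 8 other melanocyte genes (Mc1r, Trpm1, Slc24a5, Pax3, Mlph, Oca2, Erbb3 and Gpr143) summed to 1117 to 1153 TPM in controls and 1050 to 1277 TPM in sgUba1 tumors, with none at 0 in all tumors of a group. Endothelial genes summed to 82.13 to 101.6 TPM and fibroblast genes to 134.7 to 330.8 TPM over the 7 tumors, with the groups overlapping. Keratinocyte, hair follicle and prostate lists stayed at or under 6.497 TPM in each tumor, with 8 of 10 hair follicle genes at 0. The hair follicle sums did not overlap (2.736 to 4.731 TPM in controls, 1.864 to 2.166 TPM in sgUba1 tumors). They were mostly Lgr5, a Wnt pathway receptor, which fell by 1.33 on the log2 scale (9.651 to 3.852 CPM, adjusted p = 0.0159) and was called by edgeR, DESeq2 and limma-voom, though not on log2(TPM + 1). Without control 1 or sgUba1 tumor 2 it missed the threshold (adjusted p = 0.058 and 0.0727).

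**Figure D3:**
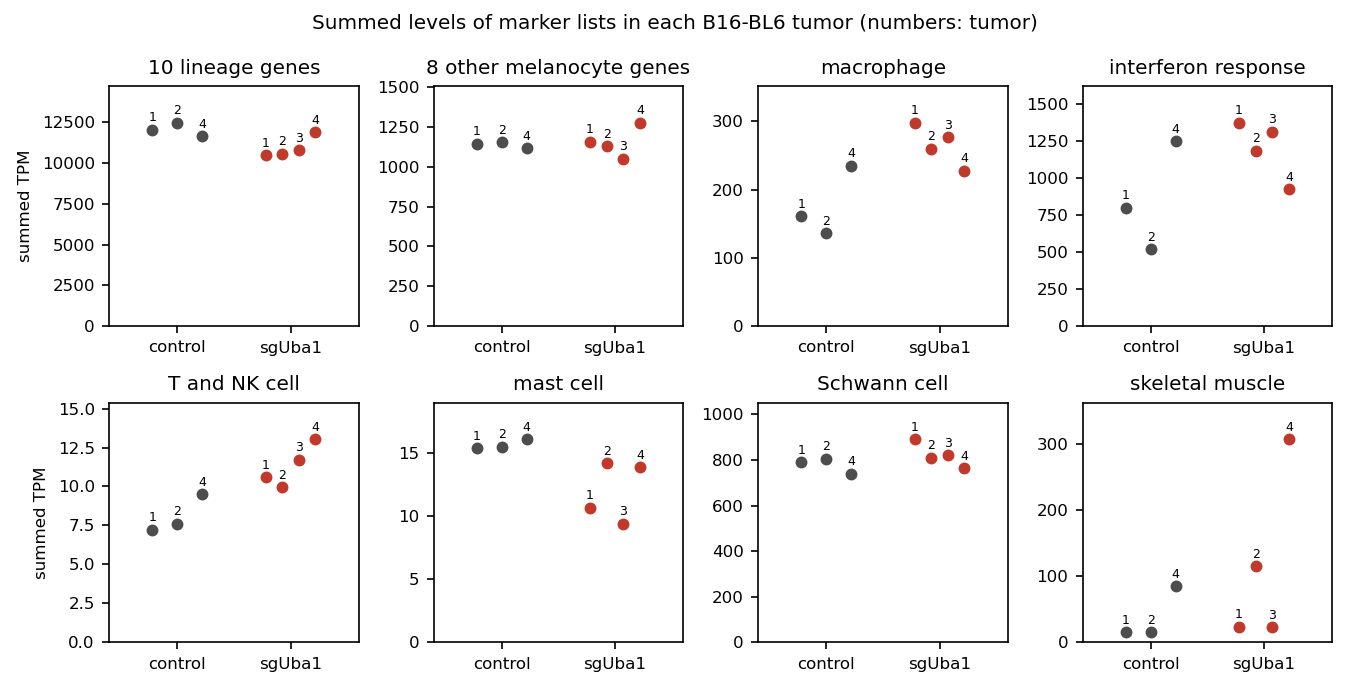
Summed TPM (y axes, from 0) of the 10 melanocyte lineage genes, of 8 other melanocyte genes and of marker lists of 6 other kinds in each B16-BL6 tumor (grey, control; red, sgUba1; numbers name tumors). The macrophage sum is 227.5 to 298.2 TPM in sgUba1 tumors against 136.2 to 234.9 TPM in controls, and skeletal muscle peaks in sgUba1 tumor 4.

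The wider pathway was read from lists written with earlier results of these data known. Of the ligands, receptors and G proteins, 8 of 10 in the table were tested in B16-BL6 tumors, 2 lay above 0 and 6 below (median −0.0611), and 0 were called by edgeR, with 3 at an unadjusted p under 0.05. On log2(TPM + 1) the split turned to 5 above and 3 below, where the median over all tested genes was 0.0513 and not 0.0124. DESeq2 called Ece1 and Mc1r. Mc1r, the receptor for α-melanocyte-stimulating hormone, stood at a mean of 136.9 CPM in controls and 95.67 CPM in sgUba1 tumors, each of the 4 below every control (−0.52, adjusted p = 0.0912). Ece1, which activates endothelins, stood at 29.31 against 40.01 CPM (0.45, adjusted p = 0.0646). Its products' precursor Edn1 was at 0.3287 against 1.021 CPM (1.58, adjusted p = 0.151), and Edn2 and Edn3 were at 0 in all 7 tumors. Ece1 and Edn1 were picked after their values were seen, and Mc1r, like Gna11 (44.62 TPM in sgUba1 tumors, 43.35 in controls), was one of the most abundant of the list.

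Of the 14 transcription regulators tested, 10 lay above 0 and 4 below (median 0.0829), and 0 were called by any of the 3 tools, with 4 at an unadjusted p under 0.05 by edgeR. Ctnnb1, the β-catenin gene, was the most abundant (585.6 TPM in controls, 674.3 in sgUba1; 0.15, adjusted p = 0.328). Zeb2, a regulator of melanocyte differentiation, followed at 230.0 and 240.8 TPM (−0.01, adjusted p = 0.961). Pax3, which acts with SOX10 on Mitf, stood at 210.6 against 233.6 CPM (0.15, adjusted p = 0.254), and Irf4, a partner of MITF on Tyr, at 9.454 against 13.77 CPM (0.54, adjusted p = 0.196). Pax3 and Irf4 were picked after their values were seen.

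Most of the melanosome list lay below 0, with a split that depended on the scale. Of 29 genes for pigment granule proteins and their trafficking, 25 lay below 0 by CPM (median −0.088), with 0 called by edgeR and 8 at an unadjusted p under 0.05. On log2(TPM + 1), which adjusts for the length of transcripts but uses no TMM factors, 17 lay below 0 and 12 above (median −0.0267). The median over all tested genes also rose there, to 0.0513 from 0.0124 by CPM. DESeq2 called Trpm1, a cation channel gene under MITF control, which was 471.6 CPM in controls and 389 CPM in sgUba1 tumors (−0.28, adjusted p = 0.171 by edgeR) but 425.6 and 432 TPM, so its direction turned with the scale. Cd63, a tetraspanin that sorts PMEL, was the most abundant at 1129 and 1151 TPM (−0.02, adjusted p = 0.895), and Gpnmb, a relative of PMEL, stood at 889.2 and 826.8 TPM (−0.17, adjusted p = 0.55). Myo5a, the motor that carries melanosomes, was at 931.4 against 816.7 CPM and Rab38, which routes TYRP1, at 189.3 against 156.3 CPM (−0.19 and −0.28, adjusted p = 0.217 and 0.169), both picked after their values were seen.

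Among 6 other MITF targets tested, 5 lay below 0 (median −0.105), with 0 called by edgeR, 1 at an unadjusted p under 0.05, and Tbx2 called by DESeq2. On log2(TPM + 1), with its all-gene median of 0.0513, 3 lay on either side. Tbx2, a repressor of senescence genes, was 73.03 against 50.84 CPM (−0.52, adjusted p = 0.0996), each sgUba1 tumor below every control. Cdk2, which neighbours Pmel on the opposite strand, was 245.5 and 235.3 TPM (−0.12, adjusted p = 0.513), and Met, the HGF receptor gene, 196.7 and 153.9 TPM (−0.46, adjusted p = 0.505). Of 11 tested genes of dedifferentiated melanoma, 10 lay above 0 (median 0.272) and 0 were called by the 3 tools, with 3 at an unadjusted p under 0.05 by edgeR. The most abundant were Tead1 (40.65 and 41.6 TPM; 0.09, adjusted p = 0.64) and Axl (29.88 and 38.55 TPM; 0.32, adjusted p = 0.581). Ngfr averaged 0.149 and 0.0951 TPM, and Sox2 was at 0 in all sgUba1 tumors. Several of this list, such as Axl, Tgfbi and Tnc, are also expressed by macrophages or fibroblasts.

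**Figure D4:**
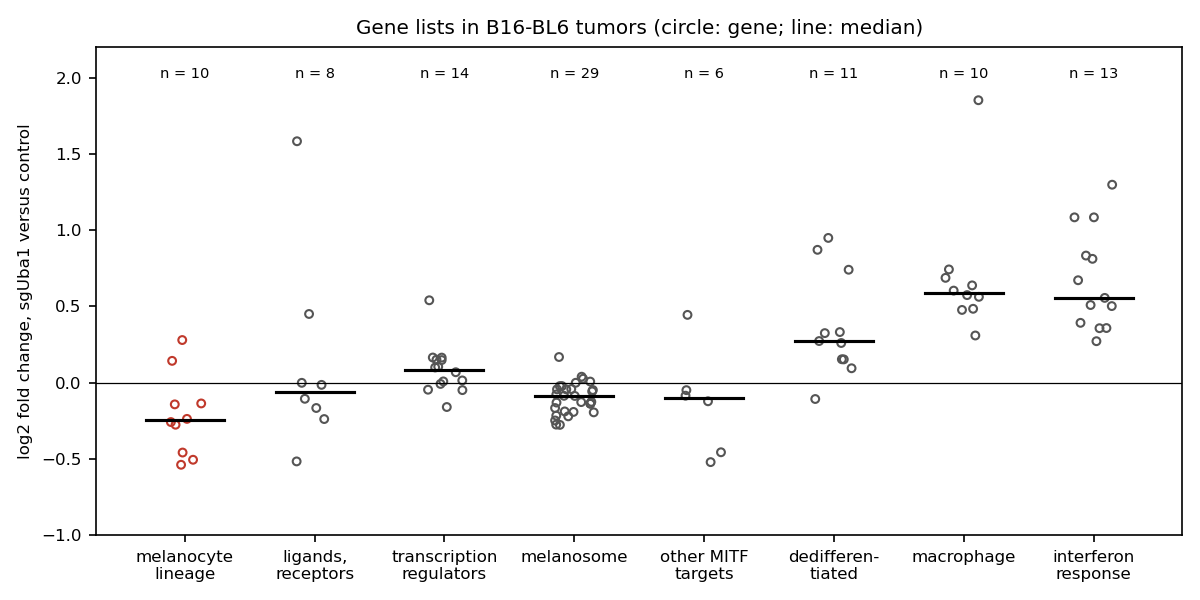
Log2 fold change (y axis) of sgUba1 against control B16-BL6 tumors for each tested gene (circles) of the 10 melanocyte lineage genes (red) and of pathway and host lists (grey), with the median as a line. The lineage genes have a median of −0.249, melanosome genes −0.088, dedifferentiation genes 0.272, and the macrophage and interferon lists lie wholly above 0.

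In Myc-CaP tumors the lineage program was near absent. Across the 28 tumors, Sox10, Dct and Slc45a2 never exceeded 3 counts, Tyrp1 did so in 1 tumor (4 counts) and Mlana in 5 (at most 8 counts). Dct was at 0 in all 28. Against the 3 Myc-CaP control tumors, and with their level set at a floor of 3 counts per library, B16-BL6 controls were at least 19000-fold higher for Dct, 9940-fold for Tyrp1, 2380-fold for Mlana, and 1500-fold for both Sox10 and Slc45a2. In the fit of both sets of controls, the 5 genes with counts above that floor in Myc-CaP were all called higher in B16-BL6, where 59.9% of all tested genes were called and 30.2% called higher. Lineage, mouse strain, mouse sex, library depth and experiment cannot be told apart in it.

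The other 5 genes had counts in Myc-CaP tumors as well. Pmel was 3237 to 3367 TPM in B16-BL6 controls and 0.144 to 3.66 TPM over the 28 Myc-CaP tumors, and Tyr 119.1 to 134.3 TPM and 0.361 to 0.849 TPM. The log2 differences between the sets of controls were 12.24 (SE 0.419, adjusted p = 1.46e-06) and 7.80 (SE 0.132, adjusted p = 4.16e-07). Mitf ranged from 4.74 to 15.4 TPM in Myc-CaP tumors, a log2 difference of 5.19 (SE 0.238, adjusted p = 4.62e-06), and from 3.0 to 7.26 TPM in the cultured cells. Mitf has start sites used by many cell types, and a gene total does not separate them.

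Kit and Ednrb stood apart from the rest because they were higher in Myc-CaP tumors than in cultured Myc-CaP cells. Kit was 0.355 to 4.74 TPM in the 28 tumors, and in the 16 cell libraries it had at most 1 count. Ednrb was 3.7 to 11.7 TPM in the tumors and 0.0305 to 0.407 TPM in the cells, with no overlap for either gene. Tyr and Pmel overlapped between tumors and cells (0.253 to 0.51 and 0.246 to 2.58 TPM in cells). Tumors and cultures were separate experiments, which cannot be told apart from growth in an animal. The difference of Ednrb between B16-BL6 and Myc-CaP controls was the smallest of the 10, 0.57 on the log2 scale (SE 0.163, adjusted p = 0.0198), from 8.32 to 11.63 TPM against 6.14 to 8.573 TPM. It failed adjustment on log2(TPM + 1) (0.40, adjusted p = 0.104) and without either of Myc-CaP control tumors 1 and 3 or B16-BL6 control tumor 4 (adjusted p = 0.0529, 0.0654 and 0.0637). The mast cell sum was 5.367, 51.57 and 14.1 TPM in Myc-CaP controls 1 to 3, where Kit was 2.068, 1.304 and 0.9677 TPM, and the part of mast cells in Kit was not tested.

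**Figure D5:**
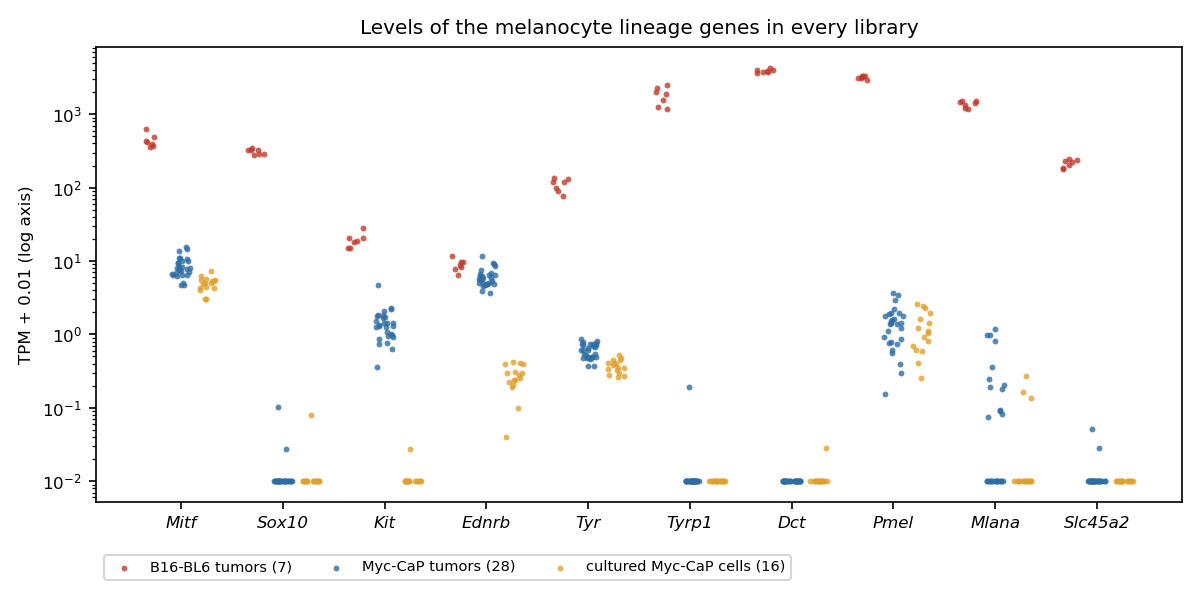
TPM + 0.01 (y axis, log scale; a value of 0 sits at the bottom) of the 10 melanocyte lineage genes in every B16-BL6 tumor (red, 7), Myc-CaP tumor (blue, 28) and cultured Myc-CaP cell library (yellow, 16). B16-BL6 tumors lie far above for 9 genes and overlap Myc-CaP tumors for Ednrb, while Kit and Ednrb are higher in Myc-CaP tumors than in cells.

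In the Myc-CaP sgRNA tumors, the label did not match the Uba1 RNA level throughout. Uba1 was 319.6 to 337 CPM in controls, 197.4 to 210.5 CPM in 3 tumors labelled sgUba1 and 361.4 to 383.2 CPM in the other 4. All 7 were kept under their label, although the whole table split them in the same way. The measure was chi-square per degree of freedom between the counts of 2 tumors, which rises with difference beyond counting noise. It was 10 to 22.7 among tumors 1 to 3, 9.71 to 15 among 4 to 7, and 61.3 to 86.9 across the sets. Among the 3 controls it ran from 13.2 to 83.8. The guide or subline of each set is not in the labels, and the values below pool both sets. Of the 10 genes, 5 passed the filter on low counts and 0 of 5 were called by edgeR, DESeq2 or limma-voom, beside 3.04% of all genes by edgeR, with 1 at an unadjusted p under 0.05, as had 23.7% of all. That gene was Mitf, at 13.74, 25.17 and 18.09 CPM in controls and 10.47 to 17.49 CPM (median 12.88) in tumors labelled sgUba1, 5 of 7 below every control (−0.56, SE 0.209, adjusted p = 0.142). Those 5 were tumor 1 and the 4 tumors whose Uba1 was above every control (10.47 to 13.14 CPM), while the other tumors with low Uba1, numbers 2 and 3, stood at 17.49 and 14.56 CPM. The changes of Kit, Ednrb, Tyr and Pmel were −0.10, −0.21, −0.07 and 0.96, with adjusted p from 0.369 to 0.907.

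The difference of the sgUba1 effects in the 2 models was tested in 1 fit of all 17 sgRNA tumors, for the 5 genes measured in both. It was largest relative to its error for Mitf, 0.83 on the log2 scale (SE 0.274, unadjusted p = 0.00809, adjusted p = 0.126), as Mitf lay above 0 in B16-BL6 and below 0 in Myc-CaP. Uba1 RNA itself changed by −0.92 in B16-BL6 but by −0.13 (SE 0.244, adjusted p = 0.787) in Myc-CaP. The fit therefore compares tumors by label and not at an equal loss of Uba1 RNA. Protein is not in these data, and the study reported partial depletion of UBA1 protein by immunoblot in Myc-CaP cells. None of the 5 was called by edgeR, DESeq2 or limma-voom, beside 1.52% of all genes by edgeR. Without Myc-CaP control tumor 1 the difference of Mitf passed (adjusted p = 0.0487). The values for Kit, Ednrb, Tyr and Pmel were −0.45 (95% interval −1.17 to 0.28), −0.06 (−0.835 to 0.719), −0.40 (−1.03 to 0.22) and −1.11 (−2.35 to 0.127).

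Among pathway genes, the 7 tumors labelled sgUba1 differed from Myc-CaP controls for several genes of these lists, beside 3.04% of all tested genes called. Tested were 9 ligands, receptors and G proteins, 13 transcription regulators, 6 other MITF targets and 13 genes of dedifferentiated melanoma, besides the melanosome list. The genes named here are those that were called. Kitl, the ligand of KIT, fell by 1.02 on the log2 scale (92.78 to 45.74 CPM, adjusted p = 0.0193) and Edn1 by 1.86 (11.09 to 3.044 CPM, adjusted p = 0.0472). In B16-BL6 tumors Kitl was at 4.922 and 4.557 CPM (−0.11, adjusted p = 0.797). The sgUba1 effect on Edn1 differed between the models by 3.43 (adjusted p = 0.0302). Sox9, a neural crest and epithelial factor, fell by 1.34 in Myc-CaP (50.07 to 19.71 CPM, adjusted p = 0.0276). Of 23 melanosome genes tested there, Slc7a11, the cystine transporter, fell by 1.40 (adjusted p = 0.016) and Rab27a, which tethers melanosomes to actin, fell by 1.07 (adjusted p = 0.0271), while Dtnbp1, of the BLOC-1 complex, rose by 0.78 (adjusted p = 0.0378), the latter differing between the models (−0.92, adjusted p = 0.038). Met fell by 1.03 (adjusted p = 0.044), Wnt5a and Fosl1 fell by 2.33 and 2.71 (adjusted p = 0.0329 and 0.038), and Tgfbi rose by 0.84 (adjusted p = 0.0471). The effect on Wnt5a also differed between the models, by 2.65 (adjusted p = 0.0462). These calls were made over tumors of which 4 of 7 had Uba1 RNA above every control, and they rested on single tumors. Leaving out each of the 10 tumors in turn, Slc7a11 was called in 9 fits, Kitl in 6, Sox9 and Rab27a in 5, Dtnbp1, Wnt5a and Fosl1 in 3, Edn1 in 2, and Met and Tgfbi in 1, with the directions kept. Without Myc-CaP control 2, 0 of these 10 genes were called, and without control 3, or tumor 4 or 6 labelled sgUba1, Slc7a11 alone was. The differences between the models were called in 9 (Edn1), 5 (Dtnbp1) and 4 (Wnt5a) of 17 such fits.

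In the other Myc-CaP experiments 0 of the 5 tested lineage genes were called by edgeR, DESeq2 or limma-voom. With Uba1 OE, Uba1 rose from 278.3 to 310.4 CPM in empty vector tumors to 630.7 to 747.2 CPM. Mitf was 13.99, 13.48 and 13.23 CPM with empty vector and 24.09, 14.43, 24.86 and 16.92 CPM with Uba1 OE. The groups did not overlap, as for 10.7% of all genes in that direction, and the change was 0.57 (SE 0.207, adjusted p = 0.219, unadjusted p = 0.0244), the 1 gene of 5 with an unadjusted p under 0.05 (18.2% of all). By edgeR 0.0269% of all genes were called. With TAK-243, which inhibits the enzyme, the changes of Mitf, Kit, Ednrb, Tyr and Pmel were 0.05, −0.26, −0.11, 0.13 and 0.20 (adjusted p from 0.707 to 0.93). None had an unadjusted p under 0.05, and 0.145% of all genes were called.

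The genes nearest to each member in pattern were taken over the 35 tumors, as the smallest root mean square difference of centred log2 CPM among 17513 genes. The distances include the step between B16-BL6 and Myc-CaP tumors, so genes with a step of like size can lie near whatever their pattern within B16-BL6. Sox10 and Slc45a2 were each other's nearest gene (0.173), followed for both by Ankfn1 and Tspan10. Both were at or under the floor in all 28 Myc-CaP tumors, and within B16-BL6 their sgUba1 changes had opposite signs (0.14 and −0.24). Tyrp1 and Dct were each other's nearest (0.631), followed by Sox10 and Slc45a2. Pmel lay nearest to Slc45a2 (0.703), Ankfn1 and Tspan10, and Mlana to Slc45a2 (0.818), Ankfn1 and Sox10. Mitf, with its lower step, lay nearest to Mbp (0.33), Fbxw25 and Fbxw18, and Tyr to Mageb16 (0.313), Gm20619 and Rps6ka6. Of the receptors, Kit lay nearest to Zfp532 (0.472), Slc16a3 and Cdh13, and Ednrb to Kifap3 (0.293), Ankmy2 and Lats2. Like Mitf and Tyr, neither receptor had another member among its 3 nearest genes.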

How the data were processed

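RNA was measured in 35 tumors and 16 cultures of Myc-CaP cells. For each of the 51 libraries the authors deposited an estimated count per gene (31.9% of values were not whole) and its TPM. The submitters' processing notes name kallisto and mm10, and the annotation release is not given in the sources used here. GENCODE M21 held 97.7% of the table's versioned gene IDs and gave positions. The labels describe poly-A capture and the study's methods removal of ribosomal RNA. Whether counting used strand is not given.

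Samples were grouped by their labels. The design had assumed read counts, so expected counts were rounded. In R 4.3.3, each experiment was fitted alone in edgeR 4.0.16 (filterByExpr, TMM, quasi-likelihood test, Benjamini-Hochberg adjustment at 0.05). The controls of both models and the difference of sgUba1 effects were fitted likewise, the latter over 17 tumors. Alternatives were DESeq2 1.42.0, limma-voom and limma 3.58.1 on log2(TPM + 1) and log2(TPM + 0.1), RLE scaling, other filters, Bonferroni, a replicate block and leaving out each tumor. Test scripts were tested on simulated data. In the B16-BL6 simulation, over 17315 genes, 82 of 100 genes changed by 1 on the log2 scale were recovered, and smaller changes were not simulated. Depth limits low genes, and a level of 3 counts or fewer was taken as the floor.

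Replicates of a group differed by more than counting noise (chi-square per degree of freedom of at least 1.84), so none was merged. Members and lists were chosen with earlier results of these data known. Named genes were the members, called genes of each pathway list (at most 6), the 2 of highest TPM in B16-BL6 controls, and the 3 nearest in pattern to each member; others are marked in the text.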

Additional observations from a re-analysis of the deposited data

Results flagged for a closer look

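Single tumors stood far from the rest of their group in 6 of 30 gene and group combinations tested, by the gap of the extreme value to its nearest neighbour over the range of the group. Chance flags about 1 in 20 groups. In Myc-CaP vehicle tumors, number 5 had the highest Mitf (29.41 CPM, the others 12.39 to 16.45), the highest Kit (8.016 CPM, the others 3.084 to 4.428) and the lowest Pmel (0.4834 CPM, the others 1.182 to 1.284). Tumor 5 of the TAK-243 group had the highest Ednrb (16.53 CPM, the others 11.25 to 12.17) and the lowest Tyr (2.023 CPM, the others 2.696 to 2.968). In Myc-CaP tumors labelled sgUba1, number 3 had the highest Ednrb (26.24 CPM, the others 10.22 to 15.9). The B16-BL6 sgUba1 group held no value past that limit, and groups of 3 were not tested.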

How the results depend on the processing

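The signs of the 10 melanocyte lineage genes in B16-BL6 tumors held in all 19 alternative settings, of which Bonferroni could not change a sign. The calls did not hold. DESeq2, and leaving out both tumors numbered 4, each called 3 of the 10, and leaving out single tumors gave 0 to 3. Of all genes 127 were called, against 24 with Bonferroni, 532 with DESeq2, 204 with no filter on low counts, 34 with all 17 sgRNA tumors in 1 fit, 597 without both tumors numbered 4, and 43 (without control 1) to 320 (without sgUba1 tumor 4) leaving out single tumors. Higher calls were 37% of the 127, 52% and 53.9% on log2(TPM + 1) and log2(TPM + 0.1), and 62.2% without control 4.

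In B16-BL6, deviations from the group mean had r of 0.155, −0.0491 and 0.164 between tumors of the same number. Between tumors of different numbers r ran from −0.283 to 0.157, and so few pairs cannot show whether equal numbers mark pairs. The replicate block called 141 genes against 140 in the same 6 tumors without it, and 0 of the 10 in both. In Myc-CaP the block called 4 genes for sgUba1, with Ednrb at 0.00937 and Tyr at 0.0373, 0 for Uba1 OE and 8 for TAK-243. The same tumors without a block gave 1 gene, Ednrb at 0.0983 and Tyr at 0.068 for sgUba1, and 153 genes for Uba1 OE.

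Myc-CaP sgUba1 calls (492) were 3 with Bonferroni, 1862 with DESeq2, 300 with limma-voom, 254 and 303 on log2(TPM + 1) and log2(TPM + 0.1), and 10 (without control 2) to 692 leaving out single tumors, with 37.8% of calls higher against 70.1% and 71.9% on the TPM scales, Kit from −0.323 to 0.274 and Tyr from −0.179 to 0.027. Uba1 OE calls (4) were 1 with Bonferroni, 723 with DESeq2, 2 with limma-voom, 33 with no filter, 1 on either TPM scale and 0 to 386 leaving out single tumors. There Kit was −0.054 on log2(TPM + 0.1) and −0.434 to 0.623 leaving out single tumors. TAK-243 calls (25) were 3 with Bonferroni, 558 with DESeq2, 45 with no filter, 0 with at least 10 counts in every library and 1 to 299 leaving out single tumors. Ednrb was 0.00618 and 0.0106 on the TPM scales and −0.211 to 0.00552 leaving out single tumors, Kit −0.611 to 0.00735 and Mitf −0.0315 to 0.282. Between the sets of controls Bonferroni left 1397 genes and 3 of the 5 lineage genes. For the difference of sgUba1 effects calls (266) were 11 with Bonferroni, 1197 with DESeq2, 115 with no filter and 29 to 661 leaving out single tumors, with 0 to 1 lineage gene. Its Ednrb value was 0.000122 with limma-voom, 0.0881 and 0.116 on the TPM scales and −0.192 to 0.152 leaving out single tumors. The share of higher calls also moved on log2(TPM + 1) and log2(TPM + 0.1) for TAK-243 (60% to 38.9% and 44.4%) and Uba1 OE (75% to 100% on both), and on log2(TPM + 0.1) for the difference of sgUba1 effects (47.7% to 36%). The cause of these shifts was not tested.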
